A study of Sus scrofa with 599 samples.

Results

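The outer 2 Mb at each end of the 18 pig autosomes were examined, which is 36 chromosome ends and 3600 of the 113298 bins of 20 kb on the autosomes. The bins were chosen by position alone, as the first 2 Mb and the last 2 Mb of each chromosome. The first ends and the last ends each hold 1800 bins. Chromosomes 1 to 12 are metacentric or submetacentric, and give 1200 first-end and 1200 last-end bins. Chromosomes 13 to 18 are acrocentric, and give 600 and 600.

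The samples were adipose tissue of 2-year-old female Bama pigs, a Chinese miniature breed. Pigs on the normal control diet (NC) were compared with pigs that had gained weight over 22 weeks on a high-fat diet (WG), and with other pigs that were fattened in the same way and then restricted for 12 weeks to 10% of their normal calories (WL). The depots were the greater omentum (GOM), mesenteric (MAD) and retroperitoneal (RAD) adipose tissues, which are visceral, and the subcutaneous upper layer of backfat (ULB). Hi-C, which captures contacts between distant pieces of chromatin in bulk tissue, gave 240 samples: 9, 12, 12 and 5 for GOM, MAD, RAD and ULB in NC, 46, 37, 40 and 39 in WG, and 10 of each in WL.

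Chromosomes end in telomeres, which are arrays of a short repeat that protect the DNA from being read as a break. In a metacentric chromosome the centromere lies well inside and both outer ends belong to chromosome arms. In an acrocentric chromosome it lies close to one end, and by convention numbering starts from the short arm, so the first end is the one on the centromere side. Chromatin falls into compartment A, which is open, rich in genes and transcribed, and compartment B, which is compact and mostly silent. The A-B index scores each bin between them, and a positive value means more contact with A than with B. In bulk tissue a changed index, like a changed RNA level, cannot be told apart from a change in the mix of cells.

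The outermost sequence differed between first ends. The following stretches are the outer 120 bases of 3 first ends of the RefSeq assembly Sscrofa11.1, the build of the deposited files, on the + strand. They show where the assembled chromosome starts at the end of highest index, on chromosome 6, and at a pair of acrocentric first ends, and no letter is capitalised.
chr6:1-120, first end: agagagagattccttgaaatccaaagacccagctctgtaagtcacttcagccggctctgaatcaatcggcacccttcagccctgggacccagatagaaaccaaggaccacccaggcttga
chr13:1-120, first end: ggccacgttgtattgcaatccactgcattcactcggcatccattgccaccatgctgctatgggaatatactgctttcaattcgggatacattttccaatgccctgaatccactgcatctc
chr15:1-120, first end: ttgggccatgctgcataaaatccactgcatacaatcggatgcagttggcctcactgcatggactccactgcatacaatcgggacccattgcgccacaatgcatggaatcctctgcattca

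The first ends of chromosomes 13, 15 and 16 carried a repeat. Shifted against themselves by 29 bases, 41.4%, 51.5% and 42.2% of the bases of their outer 20 kb were equal, where the median over shifts of 4 to 40 bases was 24.3%, 22.8% and 24.2%. The best shift was 29 bases at these 3 ends and at no other of the 36.

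Taken by class, the ends were rich in GC and in genes, apart from the first ends of the acrocentric chromosomes. GC content was 51.7% over the end bins and 41.6% over the 109698 remaining bins. Starts of protein-coding genes in the RefSeq annotation numbered 1085 at the ends, or 15.1 per Mb, against 8.04 per Mb elsewhere, and CpG dinucleotides 32.05 per kb against 11.8 per kb. By class, GC content was 55.3% at the first ends of chromosomes 1 to 12, 50.5% at their last ends, 42.8% at the first ends of chromosomes 13 to 18 and 55.6% at their last ends. Gene starts numbered 22.2, 10.6, 4.58 and 20.3 per Mb in the same order. The first ends of the acrocentric chromosomes were thus, as a class, close to the remaining bins in GC content and held fewer gene starts. Single ends departed from their class in both directions. The last end of chromosome 5 had 40.9% GC and 2.52 gene starts per Mb, and the first end of chromosome 18 had 51.7% GC.

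One chromosome stood apart before any comparison. On chromosome 10, the index profile of 12 samples was negatively correlated with the median profile over all samples, with r as low as -0.915, and in 8 of them r was below -0.8. These were WG GOM replicates 7, 11, 34, 35 and 36 and WG RAD replicates 30, 33, 35, 36, 37, 40 and 45. In 75 samples r was below 0.8 on this chromosome, whereas on every other autosome the lowest r of any sample was 0.857 or more. The mean index of the first end of chromosome 10 had a median of -2.62 in the 165 samples with r of 0.8 or more, of -1.41 in the 63 samples between 0 and 0.8, and of 2.38 in the 12 samples below 0. The sign of the index on chromosome 10 was therefore not held across samples. Some results are also given without this chromosome. The group medians, the profiles by distance and the counts of single comparisons are given only with it. No pair of samples was a duplicate, since the highest correlation between any pair was 0.986. Replicate 5 of NC ULB also stood apart, with the lowest mean index over the remaining bins in its group, -0.712, beside -0.142, -0.135, -0.417 and -0.471 in replicates 2, 7, 9 and 12.

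The chromosome ends were placed in compartment A more often than the rest of the genome in every sample. The mean index over the end bins ranged from 1.40 to 2.17 over the 240 samples, with a median of 1.82, and over the remaining bins from -0.852 to 0.0219, with a median of -0.211. The ends were higher in 240 of 240 samples, by 2.06 ± 0.209 (mean ± SD, n = 240). A positive index was found in 63.1% to 72.6% of the bins at the ends, with a median of 69.0%, and in 42.3% to 50.3% elsewhere. Without chromosome 10 the mean over the ends was 1.97 in place of 1.81, and the mean difference 2.24.

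The classes of ends differed from each other. The first ends of chromosomes 1 to 12 had a mean index of 2.62 to 4.08, with a median of 3.41. Their last ends had 0.815 to 1.75, with a median of 1.33. At the acrocentric chromosomes the order was turned: the first ends had -1.94 to -0.839, with a median of -1.20, and the last ends 1.98 to 3.25, with a median of 2.61. The ranges of these 4 classes over samples overlapped only between the metacentric first ends and the acrocentric last ends. Within each sample, the order from metacentric first ends through acrocentric last ends and metacentric last ends to acrocentric first ends held in 240 of 240 samples. The acrocentric first ends also lay below the remaining bins in 240 of 240 samples.

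**Figure D1:**
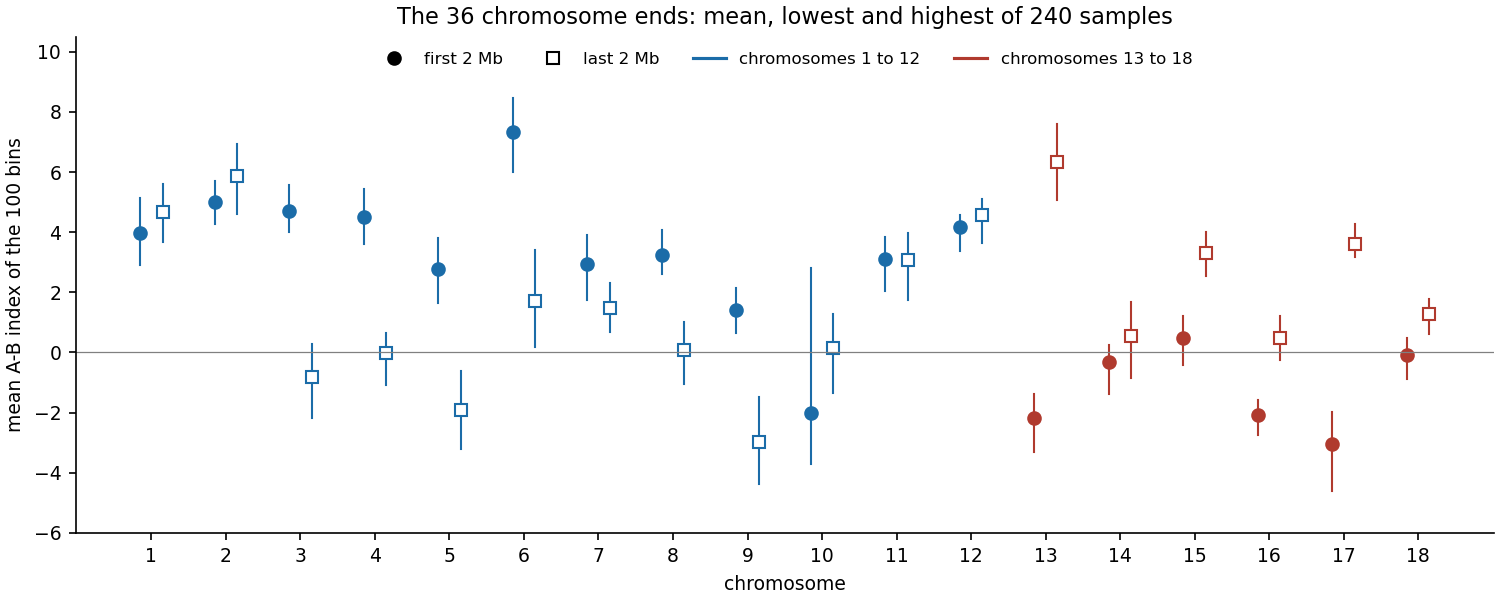
Mean A-B index of each of the 36 chromosome ends (points, mean over 240 samples; lines, lowest to highest sample), with the first and the last end of each autosome side by side. The first end of chromosome 6 is the highest at 7.32 and the first end of chromosome 17 the lowest at -3.06.

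Single ends ranged widely around their class. Of the 36 ends 26 had a positive mean index and 9 lay above 4, that is 25% of them, whereas of 1087 windows of the same 100 bins in the interior 46.6% were positive and 3.86% lay above 4. The 3 highest were the first end of chromosome 6, with a mean of 7.32 over samples that ranged from 5.998 to 8.47, the last end of chromosome 13, with 6.34 and a range of 5.07 to 7.61, and the last end of chromosome 2, with 5.88 and a range of 4.59 to 6.92. The 3 lowest were the first end of chromosome 17, with -3.06 and a range of -4.60 to -1.98, the last end of chromosome 9, with -2.99 and a range of -4.39 to -1.49, and the first end of chromosome 13, with -2.17 and a range of -3.30 to -1.39. Chromosome 13 thus carried one of the highest and one of the lowest ends. Of the first ends of chromosomes 1 to 12, 11 of 12 were positive, and the exception was chromosome 10, at -2.03. Of the first ends of chromosomes 13 to 18, 1 of 6 was positive, that of chromosome 15 at 0.496, while 6 of 6 of their last ends were.

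The last end of chromosome 9 held 3 gene starts in 2 Mb, and the first end of chromosome 4 held 89. Across the 36 ends the mean index rose with GC content (Spearman's rho 0.847) and with gene starts per Mb (0.848), and across the interior windows with GC content (0.672). These are descriptions over positions of the same libraries, and GC content and gene density move together. The authors also oriented the compartment score of each autosome by its correlation with gene density and GC content. A positive direction of these relations was therefore set in advance.

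Averaged per Mb, the index fell inward from the end in every class but the acrocentric first ends. At the first ends of chromosomes 1 to 12 the index was 3.02 ± 0.260 (SD over 240 samples) in the outermost 100 kb, reached 4.49 at 400 to 500 kb, and averaged 4.10, 2.74 and 1.82 over the outermost Mb and the next 2 Mb inward. At their last ends it reached 3.23 at 200 to 300 kb and fell to -0.898 at 1900 to 2000 kb, with averages of 2.13, 0.512 and -0.489 over the same stretches. At the last ends of chromosomes 13 to 18 it started at 1.91, reached 4.12 at 400 to 500 kb, and averaged 2.88, 2.31 and 0.753. The first ends of chromosomes 13 to 18 showed no such peak near the end. They started at -1.83, were highest at 0.113 at 1500 to 1600 kb, and averaged -1.37, -1.04 and -1.17. At the metacentric ends the outermost 100 kb lay below the next 100 kb, which had 4.22 at the first ends and 2.88 at the last ends.

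**Figure D2:**
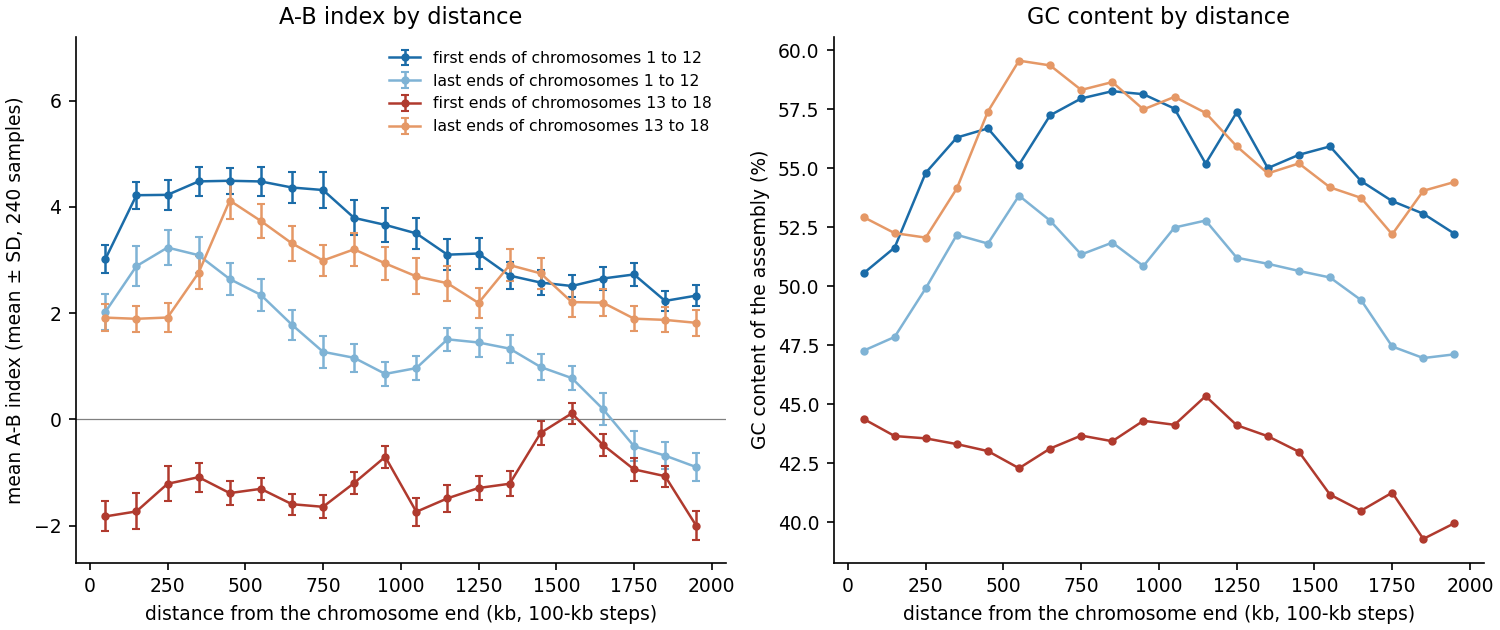
A-B index (mean ± SD over 240 samples) and GC content (%) against distance from the chromosome end in steps of 100 kb, for the first and the last ends of chromosomes 1 to 12 and of chromosomes 13 to 18. The other 3 classes peak within the outer 500 kb, at 4.49, 3.23 and 4.12, while the first ends of chromosomes 13 to 18 stay at or below 0.113.

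The end bins were more often in compartment A throughout. Of the end bins 52.5% had a positive index in every one of the 240 samples, against 29.8% of the remaining bins, and 14.7% had a negative index in every sample, against 35.7%. The share that was A in every sample was 75.1% at the metacentric first ends and 66.2% at the acrocentric last ends, 42.7% at the metacentric last ends and 13.3% at the acrocentric first ends. The share with a mixed sign over samples was similar, at 32.8% of the end bins and 34.5% of the remaining bins, and the median SD of a bin over samples was larger at the ends, at 0.680 against 0.562. Bins that were A in 30% to 70% of the samples made up 7.17% of the end bins and 6.14% of the remaining bins. They were most frequent at the metacentric last ends, at 12.3%. Chromosome 10, whose sign was not held, may add to them. Of its last-end bins, 1 was A in over 80% of all samples and 0 were B in over 80%. The shares in this paragraph were not computed without it.

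Topologically associating domains (TADs), stretches of a chromosome that contact themselves more than their neighbours, were smaller at the ends. The median size of TADs centred in an end window was 250 kb as the median over samples, with 220 to 320 kb over the 240 samples, against 360 kb elsewhere, and it was smaller in 240 of 240 samples. By class the medians were 240 kb at metacentric first ends, 240 kb at metacentric last ends, 330 kb at acrocentric first ends and 240 kb at acrocentric last ends. The acrocentric first ends had larger TADs than the metacentric first ends in 208 of 240 samples.

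Enhancer regions, called by the authors from acetylation of lysine 27 of histone H3 (H3K27ac) in pooled samples, covered more of the end bins. Over the 18 pooled tables, 43.7% to 64.1% of the end bins were overlapped by a region, with a median of 54.7%, against 26.5% to 40.2% of the remaining bins, with a median of 35.1%. The share was higher at the ends in 18 of 18 tables. The median share was 67.7% at metacentric first ends, 51.2% at metacentric last ends, 31.7% at acrocentric first ends and 55.3% at acrocentric last ends. Super-enhancers, the regions with the strongest signal, overlapped a median of 11.097% of end bins and 6.96% of the others, and were more frequent at the ends in 17 of 18 tables. The exception was NC MAD, with 5.25% and 6.26%. The least covered ends were the first ends of chromosomes 13 and 16 and the last end of chromosome 9, with medians of 15%, 17% and 19.5%. The tables are pools, and those of NC MAD and of a WG RAD subgroup rest on a single H3K27ac library. There is thus no replicate behind these shares, and the depth of the H3K27ac reads was not analysed here.

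The 12 diet by depot groups kept the same picture with small shifts. The mean index of the ends had medians of 1.70, 1.81 and 1.73 in NC GOM, MAD and RAD, of 1.79, 1.88, 1.92 and 1.66 in WG GOM, MAD, RAD and ULB, and of 1.96, 1.91, 1.92 and 1.996 in WL. In NC ULB the 5 samples had 1.91, 1.47, 1.67, 1.51 and 1.58. In ULB the WG samples ranged from 1.40 to 1.93 and the WL samples from 1.56 to 2.15, so these groups overlapped, and all other groups overlapped too. The remaining bins moved as well, with medians of -0.321, -0.314, -0.390 and -0.417 in NC, -0.218, -0.215, -0.267 and -0.126 in WG, and -0.201, -0.174, -0.0886 and -0.213 in WL. Ends and remaining bins are scored on one scale, so a shift of all bins cannot be told apart from a shift at the ends in such a mean. The acrocentric last ends in ULB had group medians of 2.37, 2.28 and 2.83 across the diets (NC, WG, WL), and the metacentric last ends 1.02, 1.27 and 1.48.

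**Figure D3:**
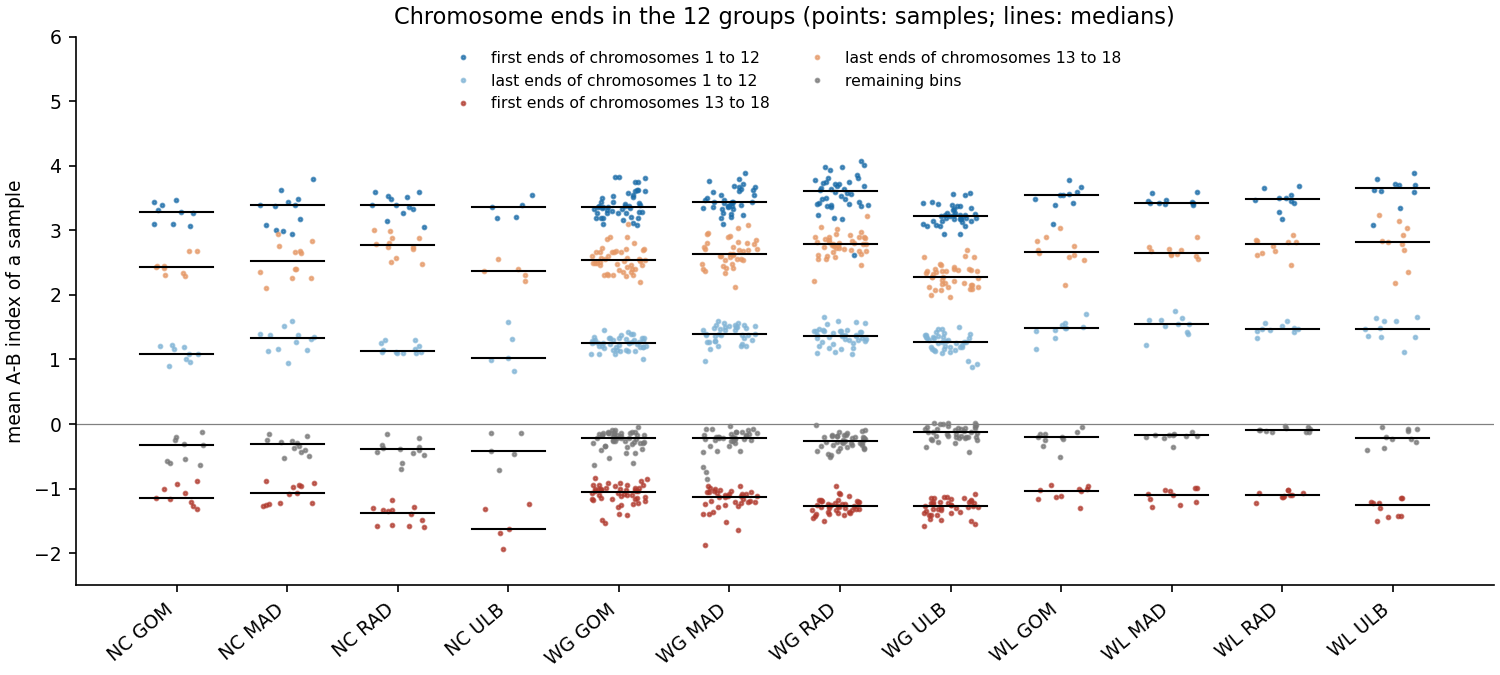
Mean A-B index of the 4 classes of chromosome ends in each Hi-C sample (points) of the 12 diet by depot groups, with the median of each group as a line. In each group the classes keep their order, with the first ends of chromosomes 1 to 12 highest (group medians 3.23 to 3.66) and the first ends of chromosomes 13 to 18 lowest (-1.62 to -1.03).

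To ask which end bins moved with the diet, the index was compared bin by bin with limma across all bins that had a value in every sample of the comparison. A bin was called at an adjusted p below 0.05 over all bins and a difference of the group means above 0.75. The diets were given to different pigs. The study took all 4 depots from each carcass, and the labels do not say whether samples of different depots with the same number came from the same pig. Counts below are of end bins, and the percentages in brackets are of all bins tested, which are the background.

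With weight gain, few end bins were called in any depot. In GOM, 123 of 3540 end bins were higher in WG (2.69% of all bins) and 13 lower (0.111%). In MAD, 108 of 3542 were higher (3.81%) and 39 lower (0.684%). In RAD, 146 of 3539 were higher (3.71%) and 22 lower (0.636%). In ULB, 197 of 3543 were higher (5.75%) and 148 lower (0.596%). As shares of the end bins the higher calls were 3.47%, 3.05%, 4.13% and 5.56%, near the background, and the lower calls in ULB were 4.18%, above it. The median difference over the end bins was 0.086, 0.103, 0.129 and 0.018 in GOM, MAD, RAD and ULB, beside 0.138, 0.056, 0.143 and 0.249 over all bins.

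These directions depended on the scale. After quantile normalization, which gives every sample the same distribution of index values, the counts of higher and lower end bins were 57 and 46 in GOM (0.878% and 0.398% of all bins), 27 and 56 in MAD (1.15% and 0.704%), 49 and 71 in RAD (1.11% and 1.28%), and 31 and 46 in ULB (1.06% and 1.12%). The median difference over the end bins was then negative in all 4 depots, from -0.144 to -0.0837. The ULB counts also rested on 1 of the 5 NC ULB samples, since 25 end bins in all were called without replicate 5, against 345 with it (6.35% of all bins in either direction). By class, the metacentric last ends held 96 of the 123 higher calls in GOM, 68 of 108 in MAD and 96 of 146 in RAD. In ULB, 86 of the 148 lower calls lay at the metacentric first ends, and 72 of the 197 higher calls at the acrocentric first ends.

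With weight loss, ULB had the most calls at the ends. The share of end bins called higher was above the background in GOM, MAD and ULB and below it in RAD, also after quantile normalization. In GOM, 164 of 3543 end bins were higher in WL (1.76%) and 13 lower (0.792%), which became 63 and 5 after quantile normalization (0.598% and 0.298%). In MAD, 72 of 3543 were higher (0.865%) and 8 lower (0.173%), which became 49 and 10 (0.465% and 0.27%). In RAD, 86 of 3539 were higher (3.68%) and 33 lower (0.207%), which became 31 and 35 after quantile normalization (1.19% and 0.682%). In ULB, 545 of 3544 were higher (2.93%) and 106 lower (7.07%), that is 15.4% and 2.99% of the end bins, so the ends had more higher calls than the background and fewer lower ones. After quantile normalization the ULB counts were 361 higher and 43 lower, where 2.24% and 1.3% of all bins were called. The median difference in ULB was 0.292 over the end bins and -0.021 over all bins.

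The ULB calls after weight loss were spread unevenly. They took 157 of 577 bins at the acrocentric last ends, which is 27.2%, and 218 of 1182 at the metacentric first ends, which is 18.4%. The metacentric last ends had 150 higher and 66 lower calls and the acrocentric first ends 20 higher and 38 lower. The last end of chromosome 14 was the most affected, with 73 of 100 bins higher in WL and a mean difference of 0.958 over its bins. Its mean index had a median of -0.154 in WG ULB and 0.728 in WL ULB, so this end crossed from a negative to a positive median. The first end of chromosome 7 had 53 of 99 bins higher, that of chromosome 5 had 46 of 100 and that of chromosome 11 had 39 of 100. The last end of chromosome 9 went the other way, with 43 of 100 bins lower and 4 higher, and the first end of chromosome 13 had 22 of 95 lower.

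**Figure D4:**
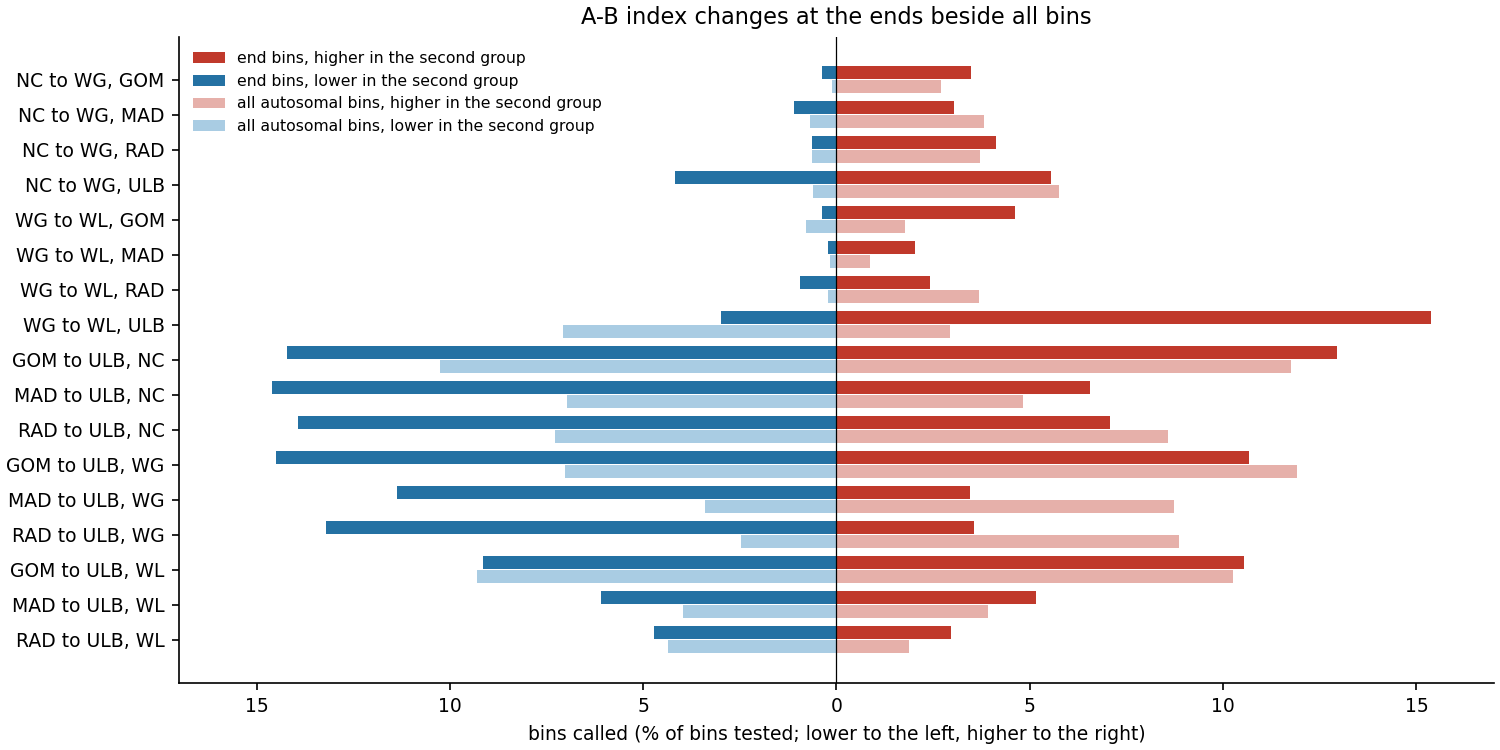
Percent of bins called higher or lower by limma in each of the 17 index comparisons, for the chromosome end bins and for all bins. In ULB after weight loss 15.4% of the end bins were higher, against 2.93% of all bins.

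Whether the diet effect differed between the depots was tested directly, with an F test of the diet by depot interaction (3 degrees of freedom) in one limma fit of the 12 groups. From NC to WG it passed an adjusted p of 0.05 in 117 of 3535 end bins, or 3.31%, against 1.58% of all bins. From WG to WL it passed in 729, or 20.6%, against 19.7% of all bins, so the ends were near the background there. The acrocentric last ends had 35.4% and the acrocentric first ends 11.8%. After quantile normalization 21 and 279 end bins passed, where 0.607% and 5.34% of all bins did. Without chromosome 10, 126 and 755 end bins passed, or 3.77% and 22.6%, against 1.71% and 20.7% of all bins. The bin with the largest F from WG to WL was chr14:141000001-141020000, whose differences in the order GOM, MAD, RAD and ULB were 0.155, 0.271, 0.281 and 1.77 (adjusted p = 0.000102, limma).

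Between ULB and the visceral depots 272 to 961 end bins were called per comparison, against 80 to 651 between the diets. Without chromosome 10 these counts were 202 to 856 and 79 to 641. In NC, 458 of 3541 end bins were higher in ULB than in GOM (11.8% of all bins) and 503 lower (10.3%). Against MAD, 233 of 3550 were higher (4.82%) and 518 lower (6.97%), which became 49 and 518 after quantile normalization (6.57% and 6.23%), and 195 in all with the replicate number as a block, against 751. Against RAD, 251 of 3544 were higher (8.57%) and 494 lower (7.28%). In WG, 378 of 3543 were higher in ULB than in GOM (11.9%) and 514 lower (7.02%). Against MAD, 122 of 3542 were higher (8.72%) and 403 lower (3.41%), and against RAD 126 of 3539 higher (8.85%) and 467 lower (2.48%). In WG the lower calls were 14.5%, 11.4% and 13.2% of the end bins, in each case above the background, and the higher calls 10.7%, 3.44% and 3.56%, below it. After quantile normalization the lower calls numbered 553, 481 and 428 (8.83%, 4.45% and 2.69% of all bins) and the higher calls against GOM 343 (8.82%), which was no longer below the background. The higher calls against MAD and RAD made up 2.88% and 2.49% of the end bins, below 4.69% and 3.31% of all bins. The comparisons within a diet share the ULB samples.

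In WL the split was more even. Against GOM, 374 of 3546 end bins were higher in ULB (10.3%) and 324 lower (9.3%). Against MAD, 183 of 3548 were higher (3.91%) and 216 lower (3.96%). Against RAD, 105 of 3547 were higher (1.88%) and 167 lower (4.37%), which became 136 and 108 after quantile normalization (2.69% and 2.42%). The median difference over the end bins was -0.176, -0.211 and -0.300 in WG against GOM, MAD and RAD, and -0.025, 0.056 and 0.024 in WL. Over all bins it was 0.110, 0.0905 and 0.0999 in WG, and 0.024, -0.014 and -0.108 in WL.

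The acrocentric last ends stood out again in the fat pigs. In WG against RAD, 145 of the acrocentric last-end bins were lower in ULB, which is 25.3%, and 1 was higher. The last end of chromosome 14 alone had 72 of 100 bins lower and none higher, and the last end of chromosome 3 had 46 lower. The metacentric last ends moved both ways, with 95 bins higher and 190 lower. The last end of chromosome 5 had 25 higher and 12 lower, and that of chromosome 7 had 22 higher and 1 lower. The last end of chromosome 10 had 22 higher and 33 lower, on the chromosome whose sign was not held. Counted over all comparisons, 37.8% of the end bins were called in at least 1 of the 8 diet comparisons, against 25.1% of all bins, and 59.0% in at least 1 of the 9 depot comparisons, against 48.8%. Without chromosome 10 these shares were 37.6% and 25.3%, and 57.6% and 47.7%.

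A larger difference of the index does not mean a change of compartment. A bin was counted as switched where over 80% of the samples of one group had a positive index and over 80% of the other a negative one. Over the 8 diet comparisons 9 switches were found at the ends, which is 0.0313% of bins times comparisons, against 0.0277% over all bins. All 9 went from B to A, as did 230 of the 251 diet switches over all bins. Over the 9 depot comparisons there were 95 at the ends, which is 0.293% against 0.357%. Of these 78 went from A in the visceral depot to B in ULB and 17 the other way, beside 1815 and 1829 over all bins. Without chromosome 10 there were 59 and 11 at the ends, beside 1722 and 1795 over all bins. In all, 76 bins switched in some comparison, 25 of them on chromosome 10.

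In ULB, 6 end bins became A with weight loss, where 0.0318% of all bins did. Of these, 3 lay at the first end of chromosome 9. The bin chr9:880001-900000 was A in 3 of 39 WG samples and in 10 of 10 WL samples. The bin chr14:140260001-140280000 was A in 0 of 39 and 9 of 10, with a mean index of -1.03 in WG and 0.474 in WL. The bin chr11:180001-200000 was A in 4 of 39 and 10 of 10. In GOM, 2 end bins became A with weight gain (0.0203%), chr2:150100001-150120000 and chr6:169140001-169160000.

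The end bins with the largest called difference in each direction of each comparison show the size of the changes. There were 34 of these, 11 of them on chromosome 10. Most kept their compartment. With weight gain in MAD, the bin chr2:150660001-150680000, which holds the starts of ARHGEF37 and of CSNK1A1, the gene of casein kinase 1 alpha, went from 4.61, 5.42 and 6.83 (lowest, median and highest sample) to 4.67, 7.38 and 9.09. It was higher in WG by 1.71 (SE 0.295, adjusted p = 4.36e-05, limma). The bin chr13:120001-140000 at the repeat-bearing first end of chromosome 13 went from -6.82, -4.64 and -3.28 to -11.8, -6.96 and -4.16, a difference of -2.31 (SE 0.518, adjusted p = 0.000952). In GOM the bin chr13:207540001-207560000, with the start of ITGB2, the beta chain shared by leukocyte integrins, went from 2.88, 4.70 and 5.44 to 3.98, 5.81 and 7.52. It was higher by 1.51 (SE 0.275, adjusted p = 0.000272).

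With weight loss in ULB the bin chr9:880001-900000, with the start of the kinase gene STK33, went from -3.46, -1.16 and 0.224 in WG to 0.00471, 1.05 and 2.02 in WL. It rose by 2.18 (SE 0.248, adjusted p = 7.99e-09), and the ranges overlapped only slightly. The bin chr13:120001-140000 went from -10.3, -6.17 and -2.54 to -13.6, -9.10 and -7.09, a difference of -3.17 (SE 0.635, adjusted p = 0.000107). In RAD the bin chr17:40001-60000 went from -7.87, -5.88 and -4.18 to -6.27, -4.80 and -3.89, higher by 1.23 (SE 0.31, adjusted p = 0.00487), and stayed in B.

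The bin chr15:20001-40000, in the repeat-bearing first end of chromosome 15, had 1 outlying sample. Its index in the 5 NC ULB samples was -7.77, -12.6, -7.95, -7.60 and -8.38, and -12.6 was replicate 5. In NC MAD it was -6.13, -4.71 and -1.99, so the groups did not overlap, and ULB was lower by 4.21 (the fitted difference was -4.21, SE 0.622, adjusted p = 0.00023). Over leave-outs of single NC ULB samples the difference ran from -4.53 to -3.29. Between NC and WG ULB it was 2.62 higher in WG (SE 0.63, adjusted p = 0.0087), and 1.69 higher without replicate 5 (adjusted p = 0.159) and 1.88 higher after quantile normalization (adjusted p = 0.0564), so that call rested on the sample and on the scale.

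Between depots, 7 of the 18 bins named lay on chromosome 10, whose sign was not held. The largest of these differences, -4.58 (SE 0.729, adjusted p = 0.000117), was in NC at chr10:67880001-67900000, with -3.62, 2.34 and 3.03 in GOM and -4.26, -2.87, -2.19, -2.28 and -3.75 in the 5 ULB samples. Among the other chromosomes, bins near the last ends of chromosomes 5 and 8 were named in both WG and WL. In WG the bin chr8:137200001-137220000, with the start of C8H4orf22, went from -3.46, -1.17 and -0.0439 in GOM to -6.49, -4.53 and -3.21 in ULB, a difference of -3.37 (SE 0.165, adjusted p = 1.42e-32). In WL the same bin went from -3.37, -1.16 and 1.22 to -7.43, -5.31 and -4.22, with no overlap, a difference of -4.40 (SE 0.454, adjusted p = 5.56e-08). The bin chr5:103800001-103820000, with a start of NAV3, a gene of the neuron navigator family, went the other way in WG, from -6.74, -4.90 and -3.35 in GOM to -4.13, -2.18 and -0.554 in ULB, higher by 2.55 (SE 0.16, adjusted p = 8.86e-26). In NC, the bin chr2:151140001-151160000, with the start of PDGFRB, the receptor for platelet-derived growth factor on cells around vessels and on fibroblasts, was 6.31, 6.74 and 8.55 in MAD. The 5 ULB samples had 9.52, 9.78, 8.69, 8.30 and 9.50, higher by 2.06 (SE 0.339, adjusted p = 0.000555), and by 0.715 after quantile normalization, under the limit of 0.75. In WG, the bin chr3:131320001-131340000, with the start of TRAPPC12, a part of a vesicle-tethering complex, was lower in ULB than in RAD, at 1.99, 3.05 and 4.18 against 3.19, 4.91 and 6.39, a difference of -1.82 (SE 0.148, adjusted p = 8.58e-18).

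Of the genes at the ends, 718 could be placed by their symbol and measured by RNA-seq in 236 samples. They had 346, 183, 41 and 148 members at metacentric first, metacentric last, acrocentric first and acrocentric last ends. Libraries held 3.34 to 22.9 estimated counts in units of 1e6, with a median of 16.8. The 6 adipocyte markers (ADIPOQ, PLIN1, FABP4, LPL, LEP and CIDEC) were all detected, with a median summed level from 7982 TPM (the share of transcripts, scaled to a sum of 1e6) in NC GOM to 22827 in WL RAD. The highest end gene over all samples was RPLP2, at a median of 4237 TPM, followed by RPS21 at 3043 and RPS7 at 2500, which encode ribosomal proteins and have near-identical processed copies elsewhere that could take or give reads. CD74, the invariant chain of class II antigen presentation, had a median of 991 TPM and FASN, fatty acid synthase, 790.

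Differentially expressed genes (DEGs) were called with edgeR's quasi-likelihood test, at a fold change above 1.5 and a p below 0.05 after adjustment across every gene tested. The background, all genes tested, also holds genes that could not be placed by symbol, whereas every end gene was placed. With weight gain in GOM, 157 of 570 tested end genes were higher (12.2% of all genes tested) and 25 lower (14.5%), that is 27.5% and 4.39% of the end genes, with a median log2 fold change of 0.29 at the ends and 0.00 over all genes. They lay at the metacentric first ends for 98 of 284 genes and at the acrocentric last ends for 36 of 109, and at the metacentric last ends for 21 of 144. The libraries of these groups differed in kind. The share of TPM on protein-coding genes had a median of 79.0% in NC GOM, within 74.8% to 96.0%, and 93.1% in WG GOM, within 76.1% to 96.4%. The summed adipocyte markers had medians of 7982 and 15100 TPM, and the 6 macrophage markers 791 and 990 TPM. With that share as a covariate, 291 end genes were higher and 33 lower (20.8% and 21.4% of all genes). The part of the markers in the result was not tested.

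In the other diet comparisons the ends were nearer the background. The share of end genes called higher lay near it, slightly above it in each. The share called lower was under it, and close to it for weight loss in RAD and ULB. The widest gaps in points were for weight gain in MAD and RAD and weight loss in MAD. These differences in share were not tested. With weight gain, 35 of 565 end genes were higher in MAD (5.38%) and 11 lower (5.29%), 47 of 555 higher in RAD (7.1%) and 27 lower (9.6%), and 4 of 559 higher in ULB (0.507%) and 6 lower (1.87%). With weight loss, 18 of 581 were higher in GOM (2.55%) and 11 lower (2.71%), 48 of 576 higher in MAD (8.26%) and 32 lower (9.17%), 15 of 563 higher in RAD (2.24%) and 22 lower (4.13%), and 26 of 562 higher in ULB (3.22%) and 26 lower (4.9%). Within WG, 33 of 572 were higher in ULB than in GOM (7.59%) and 48 lower (10.3%), 32 of 566 higher than in MAD (6.25%) and 40 lower (8.18%), and 22 of 558 higher than in RAD (5.2%) and 17 lower (4.07%).

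FASN, which makes palmitate from malonyl-CoA and lies at chr12:922405-937560 near the first end, had the largest fall of any end gene with weight loss in all 4 depots. In GOM its level had a lowest, median and highest sample of 66.8, 899 and 6563 TPM in WG and of 7.90, 32.5 and 104 TPM in WL, a log2 fold change of -4.93 (SE 0.558, adjusted p = 1.2e-08). In MAD it went from 47.3, 1248 and 9973 TPM to 9.82, 27.8 and 76.1 TPM, a log2 fold change of -5.57 (SE 0.640, adjusted p = 5.55e-08). In RAD it went from 103, 761 and 3161 TPM to 4.01, 20.8 and 72.5 TPM, with no overlap, a log2 fold change of -5.31 (SE 0.604, adjusted p = 1.21e-08). In ULB it went from 167, 1039 and 3192 TPM to 9.01, 40.7 and 279 TPM, a log2 fold change of -3.96 (SE 0.495, adjusted p = 9.61e-08). Between NC and WG it was not called, with medians of 527, 1623 and 1299 TPM in NC GOM, MAD and RAD and 743, 939, 2195, 555 and 1866 TPM in the 5 NC ULB samples. Its bin, chr12:920001-940000, was in compartment A in every sample with group medians from 4.75 to 5.34, and it was called in 0 of the 17 index comparisons by limma. From WG to WL its index differed by 0.0226, -0.200, 0.00733 and -0.131 in GOM, MAD, RAD and ULB. The adipocyte markers summed to medians of 15100, 18003, 21989 and 15669 TPM in WG and 13063, 15447, 22827 and 22166 TPM in WL.

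**Figure D5:**
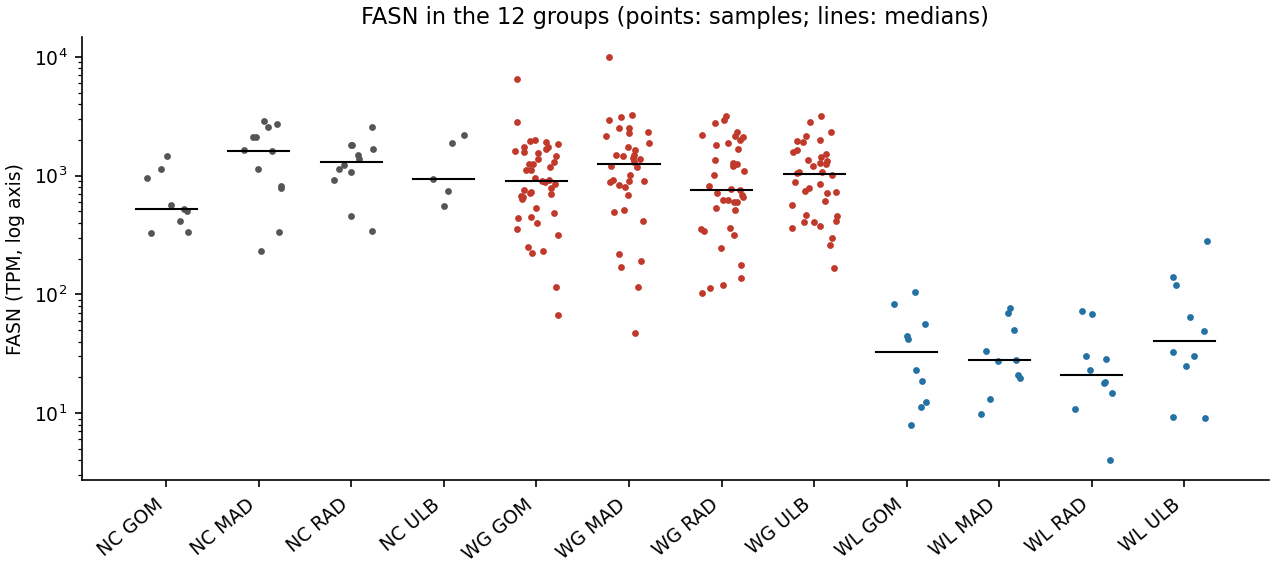
Level of FASN in each RNA-seq sample (points, TPM on a log axis) of the 12 diet by depot groups, with the median of each group as a line. The WL medians lie between 20.8 and 40.7 TPM and the WG medians between 761 and 1248 TPM.

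The other end genes with the largest change under a diet mostly had lower levels. MRPL57, a protein of the mitochondrial ribosome at chr11:1320846-1321829, went from 3.89, 5.23 and 18.6 TPM in NC GOM to 2.18, 87.8 and 1598 TPM in WG GOM, a log2 fold change of 3.64 (SE 0.931, adjusted p = 0.00195). STKLD1, a kinase-like gene at chr1:272988767-273012007, went from 0.585, 4.22 and 6.49 TPM to 0, 0.836 and 3.01 TPM in the same comparison, a log2 fold change of -2.33 (SE 0.240, adjusted p = 1.5e-11). It also fell in MAD, by 1.66 on the log2 scale (SE 0.276, adjusted p = 3.92e-05). FRMD1, which encodes a FERM domain protein at chr1:1507123-1521669, rose in MAD by a log2 fold change of 2.29 (SE 0.512, adjusted p = 0.0014) and in RAD by 1.96 (SE 0.368, adjusted p = 5.35e-05). RGS1, a regulator of G-protein signalling at chr10:1147439-1151733, had 124, 95.9, 104, 68.7 and 96.7 TPM in the 5 NC ULB samples and 78.0, 260 and 681 TPM in WG ULB. Its log2 fold change was 1.43 (SE 0.385, adjusted p = 0.0272), and the call was lost when any of 4 of the 5 NC ULB samples was left out. MYL5, a myosin light chain at chr8:115986-120297, had 0.333, 19.1, 0.973, 5.61 and 1.2997 TPM in NC ULB and 0, 0 and 2.89 TPM in WG ULB, a log2 fold change of -3.95 (SE 0.673, adjusted p = 0.000199). It could be tested again only without replicate 2, since without any of the other 4 samples it fell under the filter on low values, and the call was lost with the protein-coding share as a covariate (adjusted p = 0.314).

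Several of the largest calls rested on few samples or on 1 tool. CYP2E1, a cytochrome P450 at chr14:141690737-141703078, 64.7 kb from the end of chromosome 14, went from 2.95, 8.67 and 409.7 TPM in NC RAD to 3.502, 6.297 and 106 TPM in WG RAD, a log2 fold change of -2.39 (adjusted p = 0.000137) that neither DESeq2 (adjusted p = 0.0738) nor the fit with the protein-coding share as a covariate (adjusted p = 0.178) called. F10, coagulation factor X at chr11:78521760-78538256, went from 0.0672, 0.736 and 5.90 TPM in WG GOM to 0.204, 0.862 and 36.03 TPM in WL GOM, a log2 fold change of 2.32 (adjusted p = 0.000232) where DESeq2 gave 0.41 (adjusted p = 0.568). In RAD its log2 fold change was 1.74 (adjusted p = 0.0228), which turned to -1.08 (adjusted p = 0.376) with the protein-coding share as a covariate. S1PR3, a receptor for sphingosine 1-phosphate at chr14:659314-674969, went from 0.1003, 0.755 and 5.59 TPM in WG MAD to 0.0970, 0.9995 and 19.8 TPM in WL MAD, a log2 fold change of 2.45 (adjusted p = 4.14e-05), with close medians and an adjusted p of 0.0593 with that covariate. TUBB2B, a beta tubulin at chr7:1952705-1955780, rose more evenly with weight loss in ULB, from 9.86, 24.05 and 51.5 TPM to 30.6, 57.1 and 109 TPM, a log2 fold change of 1.10 (SE 0.184, adjusted p = 2.2e-05).

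Between depots of fat pigs, genes of transcription factors were among the largest differences. IRX2, an Iroquois homeobox factor at chr16:78305869-78322776, had 0, 0 and 0.112 TPM in WG GOM and 0, 3.68 and 8.42 TPM in WG ULB, and was higher in ULB with an adjusted p of 6.49e-42. The highest samples of WG MAD and RAD had 0.522 and 0.813 TPM, and ULB was higher with adjusted p of 2.2e-28 and 4e-25. In the 5 NC ULB samples it had 5.77, 5.98, 6.89, 5.28 and 6.88 TPM. Its bin, chr16:78300001-78320000, was in compartment B in every sample, and its index was higher in ULB and called in 7 of the 9 depot comparisons. In WG the index medians were -1.86, -1.83 and -1.95 in GOM, MAD and RAD and -0.915 in ULB, with differences of the means of 0.918, 0.895 and 1.04 (adjusted p = 3.24e-14, 2.9e-11 and 3.65e-15). GATA5, a zinc finger factor at chr17:61824891-61834742, had 1.79, 8.22 and 20.4 TPM in WG GOM and 0, 0 and 2.62 TPM in WG ULB, a log2 fold change of -6.41 (SE 0.362, adjusted p = 4.64e-28). The index of its bin was 0.404 lower in ULB (the difference was -0.404, adjusted p = 0.000425), under the limit of 0.75. CBR2, a carbonyl reductase at chr12:973780-976017, had 4.61, 17.4 and 94.3 TPM in WG MAD and 0, 0.258 and 2.21 TPM in WG ULB, a log2 fold change of -5.93 (SE 0.281, adjusted p = 1.86e-30), while the index of its bin was not called. The single mesothelial marker measured had a median of 40.2 TPM in WG GOM, 8.8 in WG MAD, 7.2 in WG RAD and 0.2 in WG ULB, and its part in these differences was not tested.

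The DEGs at the ends were also placed on the index called in the same comparison, beside all end genes tested. With weight gain, the DEGs in a called bin were 2 of 182 in GOM (23 of 570 end genes tested), 2 of 46 in MAD (32 of 565), 4 of 74 in RAD (31 of 555) and 1 of 10 in ULB (58 of 559). With weight loss they were 1 of 29 in GOM (14 of 581), 0 of 80 in MAD (5 of 576), 0 of 37 in RAD (18 of 563) and 7 of 52 in ULB (44 of 562). Between depots in WG they were 16 of 81 against GOM, or 19.8% where 12.6% of the end genes tested lay in a called bin. Against MAD they were 12 of 72, or 16.7% beside 9.19%, and against RAD 7 of 39, or 17.9% beside 14.7%. The log2 fold change had the sign of the index difference, called or not, in 51 of 81, 47 of 72 and 23 of 39 of these DEGs, that is 63.0%, 65.3% and 59.0%, beside 52.4%, 49.6% and 48.0% of the end genes tested. With weight gain in GOM, MAD, RAD and ULB these shares were 47.3%, 78.3%, 64.9% and 40%, beside 46.8%, 61.8%, 57.7% and 46.2%. With weight loss they were 51.7%, 53.8%, 48.6% and 57.7%, beside 53.4%, 50%, 46.5% and 55.3%. These differences in share were not tested.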

How the data were processed

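The members and the gene lists were chosen with earlier results of these data known. The deposited A-B index is a score that the authors computed from Hi-C reads mapped with Juicer to Sscrofa11.1 (mapping quality of at least 30), normalised (Knight-Ruiz and between samples), from a first principal component at 100 kb refined to bins of 20 kb. The number of contacts behind each score was not analysed here, so its counting error is unknown. TAD coordinates (other) came from deDoc, with a minimum of 100 kb. The estimated counts and TPM deposited per gene were made by the authors with kallisto 0.43.0 and Ensembl release 102. The enhancer tables hold region coordinates and the signal of pooled H3K27ac and input reads, made by the authors with BWA 0.7.15, SAMtools 1.3.1, SICER and ROSE. The tool versions are from the submitters' processing notes. Pooling hides the spread between samples, and normalisation between samples sets the scale on which index differences are read.

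The index table and the count table each had 9 columns that matched no sample, which were not used. An index of exactly 0 was taken as no value, which touched 65 end bins. Index differences were tested with limma 3.58.1 (R 4.3.3), and rounded counts with edgeR 4.0.16 (TMM) in genes that passed 0.5 TPM in 80% or more of 1 group's samples. The standard error of a log2 fold change was its size divided by the square root of F, an approximation. P-values were adjusted by Benjamini-Hochberg over all bins or genes. The limma test between groups and the edgeR test were tried on simulated data with known changes, in some of the comparisons. The interaction test was not. The labels do not say which samples came from separate pigs, and the depots were taken from the same carcasses, so p-values measure the spread between these samples, which may in part be technical.

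Genes were placed by symbol with the RefSeq annotation of Sscrofa11.1 (13052 of 21280 protein-coding genes), and centromere positions were not used. The outermost sequences of the last ends are not reported here. The ends named were the 3 highest and 3 lowest. The bins and genes named were those with the largest called change in each direction of each of the 17 index and 11 expression comparisons, plus the 5 end genes highest in mean TPM; bins, genes and regions named beside these, among them ends counted by their calls, the switched bins and the bin with the largest interaction, were chosen after their values were seen. Marker lists beside those in the report had these median summed levels over the 12 groups: 419 to 718 TPM for endothelial cells (3 of 4 genes measured), 9.8 to 41.3 for T cells, 12.4 to 20.5 for B cells, 1155 to 3259 for fibroblasts or progenitors, 269 to 1118 for smooth muscle, 0.9 to 4.2 for skeletal muscle (2 of 4) and 0 to 0.1 for keratinocytes (1 of 3, KRT1). Alternatives were quantile normalization of the index, other windows and limits, DESeq2 1.42.0, RLE scaling, no filter on low values, the protein-coding share as a covariate, the replicate number as a block, and leaving out single NC ULB samples. Leaving out chromosome 10 and replicate 9 of WL GOM were added after seeing the data.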

Additional observations from a re-analysis of the deposited data

Results flagged for a closer look

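Dixon's test was applied to 108 sets of values, each 1 measure in 1 group of 4 to 10 samples. The sets share samples, so they are not independent. In 10 sets 1 sample lay far from the others, where chance gives about 1 in 20. Among mean indices of single ends these were replicate 9 of WL ULB at the first end of chromosome 6 (6.80), replicate 9 of WL GOM at the last end of chromosome 13 (5.37), replicate 3 of WL RAD at the last end of chromosome 2 (5.27), replicate 10 of WL GOM and replicate 9 of WL RAD at the first end of chromosome 13 (-3.06 and -2.47), and replicate 8 of WL GOM at the last end of chromosome 9 (-2.28). Among gene levels they were CD74 in replicate 8 of NC GOM (1708 TPM) and in replicate 12 of NC ULB (1296 TPM), FASN in replicate 1 of WL ULB (279 TPM), and RPLP2 in replicate 2 of WL MAD (1638 TPM). The FASN value is the highest among the WL samples of all depots and lies within the range of WG ULB.

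The effect of the diet differed between the 4 depots, by the limma interaction test, in 117 end bins from NC to WG (3.31%, against 1.58% of all bins) and in 729 from WG to WL (20.6%, against 19.7%, so near the background). After quantile normalization these were 21 and 279. Among these, chr16:78440001-78460000 at the last end of chromosome 16 changed from NC to WG by 0.546, -0.719, -0.792 and -0.470 for GOM, MAD, RAD and ULB in turn (adjusted p = 0.00266). The bin chr12:60060001-60080000 changed from WG to WL by -0.996 in ULB and by 0.187, 0.0265 and 0.418 in GOM, MAD and RAD (adjusted p = 0.000149).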

How the results depend on the processing

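With windows of 1 Mb, the mean index was 2.33 at all ends, 2.55 above the remaining bins, and 4.10, 2.13 and 2.88 at the metacentric first, metacentric last and acrocentric last ends; with 5 Mb these were 0.894, 1.16, 2.38, 0.144 and 1.45. Without chromosome 10 the mean index was 1.97 at all ends and 3.92 at metacentric first ends. The excess of enhancer bins at the ends was 13.1 points with an overlap of 10 kb and 4.63 for super-enhancers. Without the limit on the size of the difference, calls at the ends were 268, 525 and 597 for weight gain in GOM, MAD and RAD, 449, 165, 394 and 1348 for weight loss in GOM, MAD, RAD and ULB, and 2384, 1883 and 2273 for ULB against GOM, MAD and RAD in WG. Quantile normalization gave 83 and 77 for weight gain in MAD and ULB, 68, 66 and 404 for weight loss in GOM, RAD and ULB, and 21 and 279 for the interactions. Switches at 70% numbered 85 between diets and 436 between depots. Without the filter on low values, end DEGs numbered 72, 113 and 23 for weight gain in MAD, RAD and ULB, and 122, 112 and 66 between depots. With the protein-coding share as a covariate they numbered 324 and 2 for weight gain in GOM and ULB and 38 for weight loss in MAD, and F10 in RAD reversed to -1.08 (adjusted p = 0.376). The cause was not tested. Leaving out single NC ULB samples, calls ran from 25 (without replicate 5) to 455 for weight gain in ULB, and from 829 to 890, 459 to 706 and 564 to 731 for ULB against GOM, MAD and RAD in NC, and end DEGs for weight gain in ULB from 2 to 9. DESeq2 and RLE scaling kept 11 of 11 DEG counts within 1.5 times.

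Between diets, which were given to different pigs, same-numbered samples did not deviate together: the median correlation of their deviations was -0.133 to 0.065. Between depots, taken from the same carcasses, it was 0.013 to 0.186. Single pairs were above 0.1 in 23 of 34 for RAD against ULB in WG and in 4 of 5 in NC, but in no comparison were all. For RAD against ULB, 6 of 10 samples in WL, 7 of 34 in WG and 3 of 5 in NC correlated best with their own number. For MAD against ULB in NC 1 of 5 did, and between diets 0 or 1 per comparison. The numbers may thus mark pigs, and this was not settled. The main depot and interaction tests did not use the numbers. With the replicate number as a block, calls were 0 for weight gain in GOM (limma, 372 at an unadjusted p below 0.05), 230 in MAD and 6 in ULB, 8, 0 (604 unadjusted), 23 and 388 for weight loss in GOM, MAD, RAD and ULB, and 195 for MAD against ULB in NC, while the other 8 depot counts stayed within 1.5 times. End DEGs under the block were 14, 0 (edgeR, 45 unadjusted), 33 and 0 (20 unadjusted) for weight gain in GOM, MAD, RAD and ULB, and 9 for weight loss in GOM. Between diets the block tied different pigs together. Only numbers present in both groups informed the difference, which for the index left 9 pairs from NC to WG in GOM. The diet counts under the block therefore cannot show whether the diet calls hold. Of the named bins 30 of 34 kept their call under quantile normalization and 22 under the block. Precision was limited most in NC ULB, with 5 samples.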
